A study of Mus musculus with 2 samples.

Results

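The cells described here are the dendritic cells (DCs) and plasmacytoid dendritic cells (pDCs) of mouse lungs profiled by single-cell RNA sequencing. Members were the cells whose deposited annotation reads DCs or pDCs, and both types are given separately. They numbered 174 DCs and 70 pDCs, 244 cells of 18397 in all. The lungs came from female BALB/c mice, with no genotype given beyond the strain, which were 4 weeks old at the start and 20 weeks old at the end of 16 weeks on either diet. Fat from lard provided 13% of the energy of the control diet (CD) and 60% of that of the high-fat diet (HFD). Protein provided 27% in CD and 20% in HFD, and carbohydrate 60% in CD and 20% in HFD. Each diet was represented by 1 library, and how many mice entered a library was not stated. No test could therefore be run, cells are not replicates of a diet, and every interval below is a 95% interval, exact unless stated, that covers counting error only.

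Dendritic cells are the sentinels of the immune system. Conventional DCs take up antigen in the airway wall and the alveolar septa, carry it to the draining lymph node and present it to T cells on class II molecules, with a cDC1 branch that depends on Batf3 and Irf8 and cross-presents antigen, and a cDC2 branch that depends on Irf4 and primes helper T cells. pDCs are rounder, secretory cells that depend on Tcf4, sense nucleic acids through Tlr7 and Tlr9 and release type I interferon. Both kinds arise from bone marrow progenitors that need Flt3, the receptor of the cytokine Flt3 ligand.

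The deposited table of 19278 genes lists Flt3 and 2 further marker genes of these cells. Flt3 (ENSMUSG00000042817) is a minus-strand gene of chromosome 5 at positions 147330741 to 147400489 (GRCm38). Xcr1 (ENSMUSG00000060509), the chemokine receptor that marks cDC1 cells, is encoded on chromosome 9, minus strand, at positions 123852315 to 123862029. Siglech (ENSMUSG00000051504), a surface lectin of mouse pDCs, is encoded on chromosome 7, plus strand, at positions 55768178 to 55778925. All are protein-coding genes. Their values in single cells were not analysed here, so the names DCs and pDCs rest on the annotation the authors made by hand from cluster averages. The annotation reads DCs only, and whether all of these cells are conventional DCs could not be checked against markers.

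A yes-or-no flag in the same table marks the 1000 highly variable genes, 5.19% of all genes, from which the positions and clusters of the cells were computed. Siglech carried this flag, whereas Flt3 and Xcr1 did not. Among 12 pDC genes, 8 were flagged (Siglech, Bst2, Ly6d, Ccr9, Klk1, Cox6a2, Spib and Runx2). The transcription factor Tcf4, the interferon regulator Irf7 and the receptors Tlr7 and Tlr9 were the 4 pDC genes without it. Among 8 cDC2 genes, 5 were flagged (Cd209a, Sirpa, Mgl2, Itgam and Clec10a), and Irf4, Klf4 and Notch2 were not. Among 9 cDC1 genes only Irf8 and Naaa were flagged, so that 7 of them, with Xcr1, Clec9a and Batf3 among those, did not enter the plane in which the clusters were drawn. Mature DC genes had 5 of 9 flagged (Ccr7, which guides migration to lymph nodes, Ccl22, Ccl17, Il4i1 and Cd83).

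Genes shared by conventional DCs had 5 of 9 flagged. These were Itgax, Cd74 and the class II genes H2-Aa, H2-Ab1 and H2-Eb1, while Flt3, Zbtb46, Ciita and Cd86 were not. Of 19 antigen presentation genes 9 were flagged, of 18 genes of DC development 5, and of 18 genes of nucleic acid and Toll-like receptor sensing 1, namely Tlr2. For comparison, the flag marked 9 of 10 monocyte genes, 7 of 10 macrophage genes, 4 of 6 alveolar macrophage genes, 6 of 7 B and plasma cell genes and 7 of 7 T and NK cell genes. The flag was set over both diets together, and it gives neither a level nor a direction between CD and HFD.

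Both types were rare. In CD, 85 of 8793 cells were DCs (0.967%, 0.773 to 1.19), and in HFD 89 of 9604 were (0.927%, 0.745 to 1.14). The ratio of the HFD share to the CD share was 0.959 (0.704 to 1.31). There were 30 pDCs in CD (0.341%, 0.230 to 0.487) and 40 in HFD (0.416%, 0.298 to 0.567), for a ratio of 1.22 (0.742 to 2.03). For either type the intervals of the diets overlapped, and no difference was detectable at these cell numbers. Over the 17 annotated types, 29.4% had share intervals that did not overlap.

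**Figure D1:**
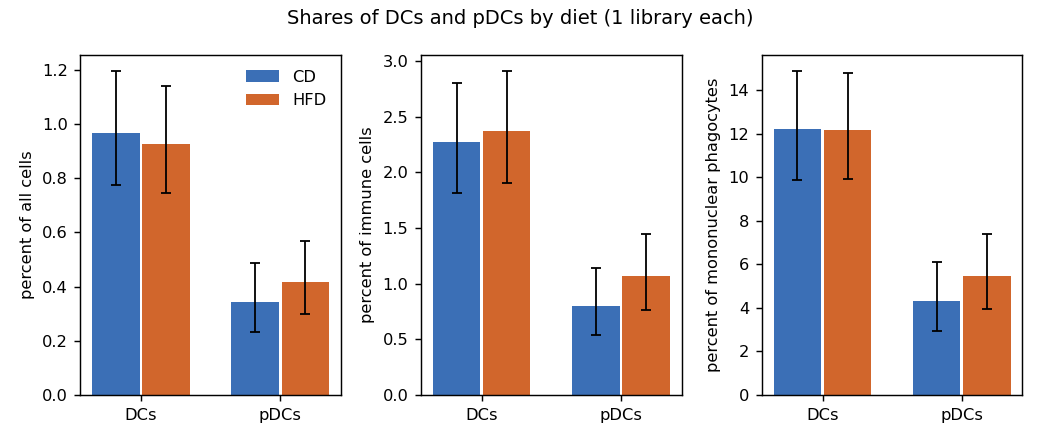
Percent of DCs and pDCs among all cells, immune cells and mononuclear phagocytes (vertical axes, from 0) in CD and HFD; bars are the share in 1 library and error bars exact 95% binomial intervals. The error bars of CD and HFD overlap in every panel, with DCs at 12.2% of mononuclear phagocytes on both diets.

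Narrower denominators gave the same picture. Of the immune cells, DCs were 2.27% in CD (1.82 to 2.80, of 3743 cells) and 2.37% in HFD (1.91 to 2.91, of 3756 cells), for a ratio of 1.04 (0.766 to 1.42). The direction of the DC difference thus depended on the denominator. Of the mononuclear phagocytes (DCs, pDCs, monocytes and both classes of macrophages), DCs were 12.2% on either diet, with a ratio of 0.998 (0.733 to 1.36). pDCs were 0.801% of immune cells in CD and 1.06% in HFD, for a ratio of 1.33 (0.807 to 2.21), and 4.31% and 5.48% of mononuclear phagocytes, with a ratio of 1.27 (0.772 to 2.11).

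Relative to each other, there were 0.353 pDCs per DC in CD and 0.449 in HFD, and the ratio of these was 1.27 (0.702 to 2.32). DCs per monocyte were 0.531 in CD and 0.489 in HFD, for a ratio of 0.920 (0.628 to 1.35). DCs per non-alveolar macrophage were 0.664 and 0.582, for a ratio of 0.876 (0.589 to 1.30). DCs per alveolar macrophage moved the other way, from 0.290 to 0.335, for a ratio of 1.15 (0.809 to 1.65). Each of these intervals included 1.

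By fine cluster, the make-up of both types was simple. All 174 DCs lay in cluster 32 and all 70 pDCs in cluster 40, and neither cluster held a cell of another annotation. The clusters therefore do not divide the annotated DCs further, and which DC subtypes cluster 32 holds was not analysed here. Each cluster share equals the type share given above. Of the 51 fine clusters, 25.5% had share intervals that did not overlap between the diets, and neither cluster 32 nor cluster 40 was among them.

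DCs were among the cells with the most RNA captured. Their UMIs (unique molecular identifiers, each counting 1 captured transcript) ran from 1130 to 20415 per cell in CD, with a median of 8476 and quartiles of 6277 and 11167. In HFD they ran from 1053 to 17744, with a median of 8987 and quartiles of 6480 and 11076. Cells of the diets overlapped over nearly the whole range, and the ratio of medians was 1.06. The median cell of any type had 3356 UMIs in CD and 3591 in HFD. DCs ranked 4th of 17 types in both libraries, below alveolar macrophages, AT2 cells and ciliated cells and above macrophages.

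pDCs held fewer UMIs than DCs. Their median was 5795 in CD (quartiles 4987.25 and 6430.5) and 6411.5 in HFD (5467 and 7434.75), for a ratio of 1.11, and they ranked 6th of 17 in both libraries. A single pDC of CD stood apart with 18169 UMIs and 4929 genes, when the next highest had 8854 UMIs. No step that removes doublets (droplets with more than 1 cell) is stated by the study, and a doublet caller could not be run without values of single genes. No DC or pDC fell in the top 1% of its library by UMIs. Between the diets, the UMI ratios of DCs (1.06) and pDCs (1.11) lay below the median ratio of 1.13 over the 17 types. A higher median in HFD was found in 14 types, and among these the ratio of DCs was the lowest, with pericytes close at 1.07. The ratio was 1.26 in monocytes, 1.24 in alveolar macrophages and 1.11 in macrophages. Without cells under 2000 UMIs the ratio of DCs rose to 1.13, so their rank rested partly on shallow cells.

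DCs carried more of the RNA of a library than of its cells. The DCs of CD summed to 736449 UMIs (734768 to 738133), 1.73% of all UMIs of that library. In HFD they summed to 783542 UMIs (781808 to 785279), or 1.55%. These intervals are Poisson intervals of the summed UMIs and leave out the error of drawing few cells. Between single DCs the UMIs had a coefficient of variation of 45% in CD and 44% in HFD. The intervals of the sums are therefore far too narrow to compare the diets. For pDCs these percents were 0.426% in CD and 0.502% in HFD, nearer to their share of cells.

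Both types had a tail of shallow cells. DCs under 2000 UMIs numbered 4 of 85 in CD (4.71%, 1.30 to 11.6) and 8 of 89 in HFD (8.99%, 3.96 to 16.9). Under 3000 UMIs there were 7 DCs in CD and 10 in HFD, and 2 of 30 pDCs in CD and 4 of 40 in HFD. The lowest count of any cell in the table was 1000 UMIs in CD and 1001 in HFD, above the minimum given in the study's methods, so that shallower DCs, if there were any, are not counted here.

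**Figure D2:**
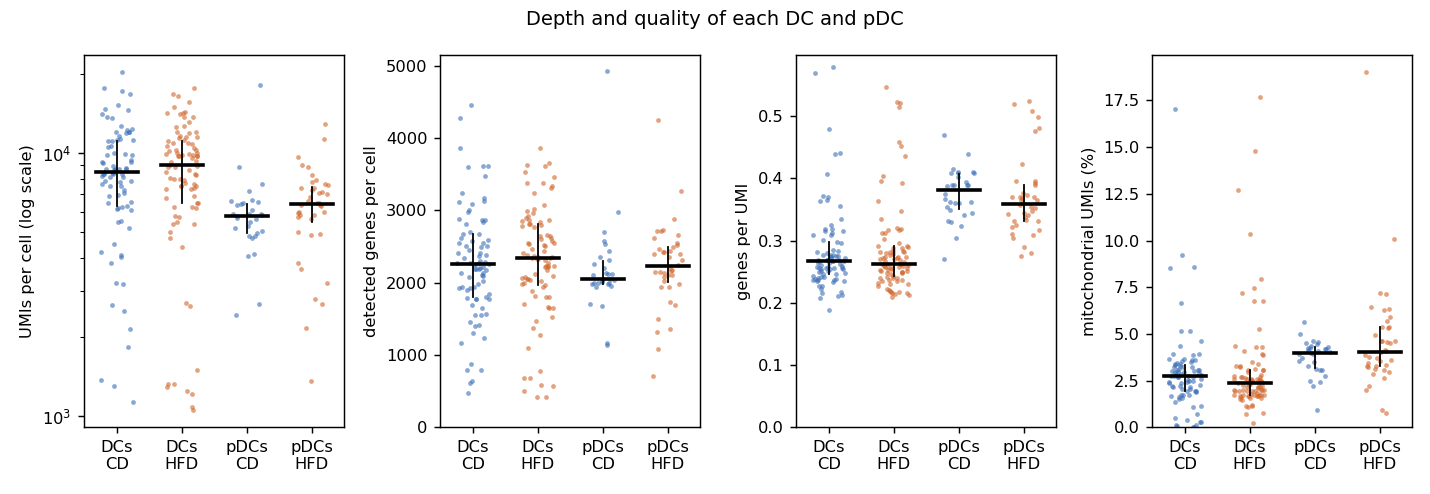
UMIs (log axis), detected genes, genes per UMI and percent of mitochondrial UMIs of each DC and pDC in CD and HFD; points are cells, thick lines medians and thin lines quartiles. DCs and pDCs differ in genes per UMI (medians of 0.267 and 0.381 in CD, 0.263 and 0.359 in HFD) by more than either differs between the diets.

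The number of detected genes per cell was similar in both types. DCs had a median of 2255 genes in CD (quartiles 1802 and 2668) and 2347 in HFD (1974 and 2811), for a ratio of 1.04. pDCs had a median of 2055.5 genes in CD (1988.75 and 2304.25) and 2225 in HFD (2016 and 2498), for a ratio of 1.08. DCs and pDCs stood 4th and 5th of the 17 types in both libraries. For either type the quartile ranges of the diets overlapped.

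Genes per UMI, a measure of how evenly the captured transcripts are spread over genes, set the types apart. The median was 0.267 genes per UMI in DCs of CD and 0.263 in DCs of HFD, rank 16 of 17 in both, with only AT2 cells lower. In pDCs it was 0.381 in CD and 0.359 in HFD, rank 9 of 17 in both. The lower quartile of pDCs (0.351 in CD, 0.331 in HFD) lay above the upper quartile of DCs (0.298 and 0.291). Genes per UMI falls as UMIs rise, however, and DCs were the deeper cells.

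Cells were therefore compared at like depth, each with the cells of another type in its own library that lay within 25% of its UMIs. At like depth the median pDC of CD had 1.19 times as many genes as DCs, with 0 of the 29 pDCs that had at least 5 partners below the DC level. In HFD the ratio was also 1.19, with 0 of 34 pDCs below. The lower quartile of these ratios was 1.15 in CD and 1.11 in HFD. Taken from the side of the DCs, which included other cells and depths, the difference was smaller. The median DC had 0.893 times the genes of pDCs in CD, with 36 of 40 below the pDC level, and 0.920 times in HFD, with 52 of 62 below. At 6000 UMIs the fitted gene number was 1789 in DCs and 2200 in pDCs of CD, and 1786 and 2179 in HFD. The difference between the types was thus present at like depth in each library.

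Compared with all other cells of like depth, the median DC had 0.829 times as many genes in CD and 0.866 times in HFD, and 80 of 85 and 84 of 89 DCs lay below the level of the others. Against monocytes the ratio was 0.893 in CD and 0.954 in HFD, against macrophages 0.931 and 0.947, and against alveolar macrophages 0.803 and 0.810. Against B cells the ratio was 0.936 in CD and 0.994 in HFD, where 46 of 89 DCs lay below, so that DCs were not low against every type. pDCs instead had 1.04 times the genes of all other cells on both diets. Against monocytes their ratio was 1.12 in CD and 1.09 in HFD, and against B cells, with which pDCs share some lymphoid genes, it was 1.18 and 1.16. Against alveolar macrophages pDCs were level, at 0.995 in CD and 1.01 in HFD. Between the diets, at matched UMIs, the ratio of genes per UMI was 1.01 for DCs and 0.986 for pDCs.

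**Figure D3:**
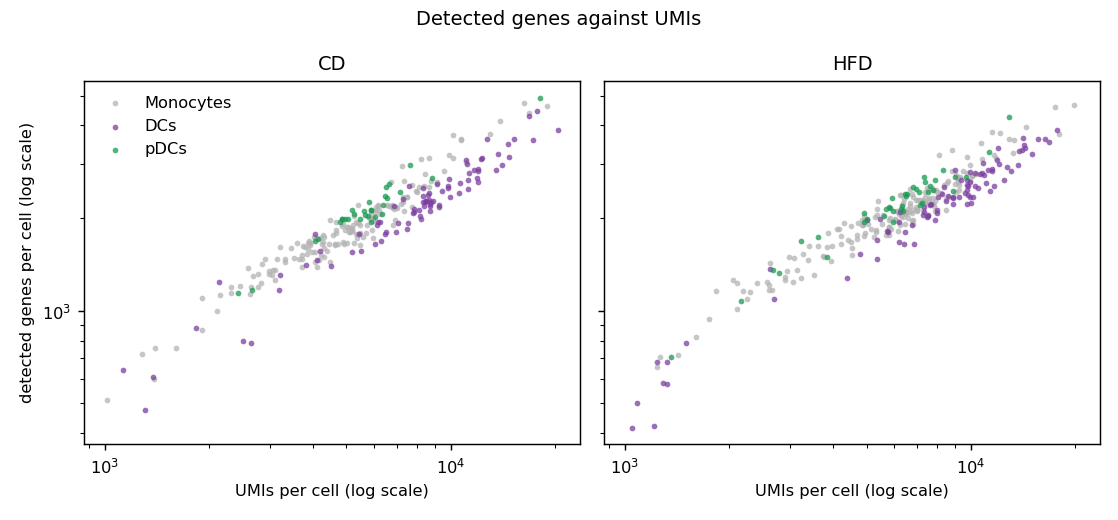
Detected genes against UMIs of each monocyte, DC and pDC (both axes log), CD left and HFD right. At like depth pDCs lie mostly above the monocytes (median ratio 1.12 in CD, 1.09 in HFD), and DCs lie below them in 71 of 81 cells in CD and 55 of 82 in HFD.

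The mitochondrial percent (the share of a cell's UMIs from mitochondrially encoded protein-coding genes) was low in DCs and high in pDCs. DCs had a median of 2.73% in CD (quartiles 1.93 and 3.35) and 2.40% in HFD (1.75 and 3.09), against 3.28% and 3.49% over all cells. pDCs had 4.00% in CD (3.18 and 4.28) and 4.05% in HFD (3.27 and 5.36), rank 3 and rank 4 of 17. At like depth, 26 of 29 pDCs of CD and 31 of 34 of HFD lay above the DCs of their library, with median differences of 1.48 and 1.56 percentage points. Against monocytes DCs differed by 0.12 and -0.04 percentage points.

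Between the diets, the median of DCs was 0.878 times as high in HFD, 1 of 4 types with a lower median there, while 13 of the 17 were higher. Their quartiles overlapped, and the mean went the other way, from 2.91% in CD to 3.14% in HFD. DCs over 10% numbered 1 in CD and 4 in HFD. These were shallow cells, with a median of 1415 UMIs in HFD and 1380 UMIs in the 1 of CD. For pDCs the ratio of medians was 1.01, while the mean was 3.75% in CD and 4.64% in HFD, for a ratio of 1.24. pDCs over 10% numbered 0 of 30 in CD and 2 of 40 in HFD.

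The low end of the mitochondrial percent differed more between the libraries. Among DCs of at least 5000 UMIs, 7 of 71 in CD (9.86%, 4.06 to 19.3) had under 0.5% mitochondrial UMIs and 0 of 77 in HFD (0%, exact upper limit 4.68%). By the rule that a count of 0 allows 3 counts, a share of up to 3.90% was allowed in HFD. These limits were chosen after the values had been seen, and the size of the difference depended on them. Under 0.25% there were 4 of 71 DCs in CD and 0 of 77 in HFD, so that the difference went from -9.86 to -5.63 percentage points. Under 1% there were 8 of 71 and 2 of 77, with overlapping intervals (4.99 to 21.0 in CD, 0.316 to 9.07 in HFD). The 7 cells had from 5520 to 20415 UMIs, and the deepest, also the deepest DC of all, had 1 mitochondrial UMI among 20415. The cell just inside the limit had 0.399% and the one just outside 0.523%, and in HFD the lowest DC of this depth had 0.706%.

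The medians of these 7 cells in other measures were ordinary, though the deepest also had the fewest genes per UMI of any DC (0.189). Their median of 8089 UMIs and 0.258 genes per UMI stood beside 8742.5 UMIs and 0.259 genes per UMI in the 64 other CD DCs of this depth. All other annotated cells of at least 5000 UMIs had 1.47% under the limit in CD (1.02 to 2.03, 35 of 2388) and 0.700% in HFD (0.434 to 1.07, 21 of 3001). Within CD, the interval of DCs lay above that of the other cells pooled. By type, it lay above those of AT2 cells, endothelial cells and fibroblasts, and overlapped those of all other types, such as neutrophils (2 of 24, 8.33%, 1.03 to 27.0) and macrophages (2 of 84, 2.38%, 0.290 to 8.34). Between the diets the exact intervals of DCs overlapped (4.06 to 19.3 in CD, 0 to 4.68 in HFD), as they did for every other type, since 0% of the 17 had low-mitochondrial shares whose intervals did not overlap. The interval of the difference itself, built from both exact intervals, ran from -19.3 to -2.41 percentage points and excluded 0, as it did in 5.88% of the 17 types, DCs being the only one at this limit. At the other limits the interval of DCs included 0, from -18.7 to 0.345 under 1% and from -13.8 to 0.572 under 0.25%. Monocytes had 1 of 83 such cells in CD and 3 of 125 in HFD, and pDCs had 0 of 22 and 0 of 31.

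**Figure D4:**
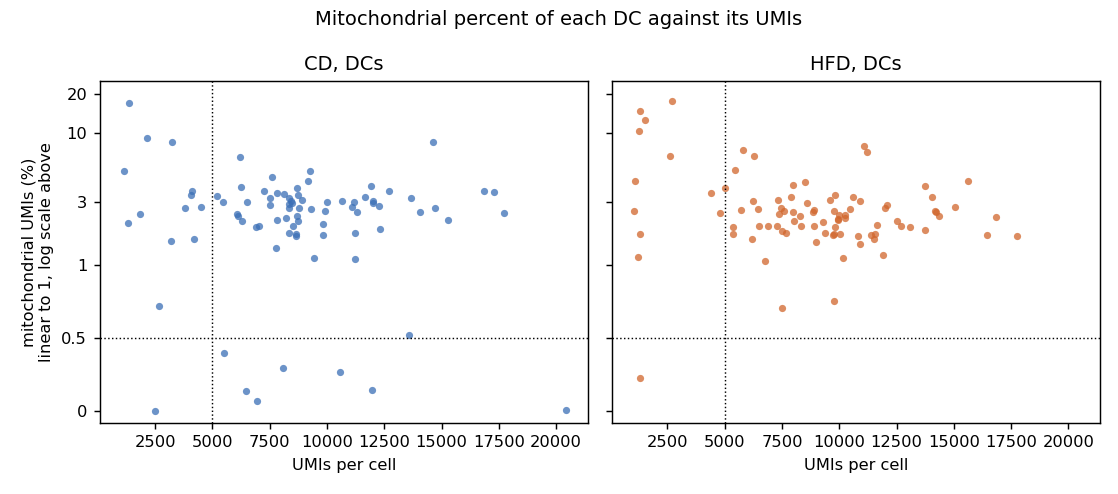
Percent of mitochondrial UMIs (linear up to 1, log above) against UMIs of each DC, CD left and HFD right; dotted lines mark 0.5% and 5000 UMIs. The lower right field holds 7 DCs of CD and none of HFD.

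Positions were read from the UMAP plane, a map in which the authors placed cells of both libraries by the similarity of their expression and in which they drew the clusters. Its units are arbitrary, and that cells of 1 cluster lie together is given by the way clusters were made. pDCs formed an island, and the 15 nearest cells of each pDC were all pDCs. The same held within every other annotated type except DCs. The nearest other cluster by median position was cluster 28 of myofibroblasts, at 0.178 units. DCs lay 0.161 units from monocyte cluster 23, their nearest neighbour, and 0.873 units from pDCs, so that the map placed 38 other clusters nearer to DCs than pDCs were. Fibroblast clusters 38 and 22 came next after the monocytes, at 0.183 and 0.249 units, so nearness in the plane did not follow cell lineage.

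Of the 174 DCs, 2 had cells of another type among their 15 nearest. Both were from HFD, and all of the other cells were monocytes of cluster 23. They sat at the end of a thin arm of the DC cluster that reached towards the monocytes. The 5 DCs farthest along this arm were all from HFD and the next was from CD. The 5 had from 7677 to 12013 UMIs, within the range of the other DCs. No clear gap marked the start of the arm, and it was noticed only once the plane had been seen.

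The libraries were mixed in both clusters. HFD cells made up 51.1% of DCs, and of the nearest 15 cells of a DC 47.3% were from HFD around CD cells and 51.0% around HFD cells. For pDCs, of which 57.1% were from HFD, these percents were 55.3% and 60.2%. The gap between CD and HFD cells was 3.72 percentage points in DCs and 4.83 in pDCs, rank 12 and rank 10 of 17 types. Over the nearest 30 cells it was 2.71 points in DCs, and in pDCs it turned to -1.58, with 58.0% around CD cells and 56.4% around HFD cells. The median positions of the libraries were 0.00930 units apart in DCs and 0.00232 in pDCs, which is 0.663 and 0.644 times the typical distance of a cell from its centre. Only basophils had a larger relative shift than DCs among the 17 types.

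**Figure D5:**
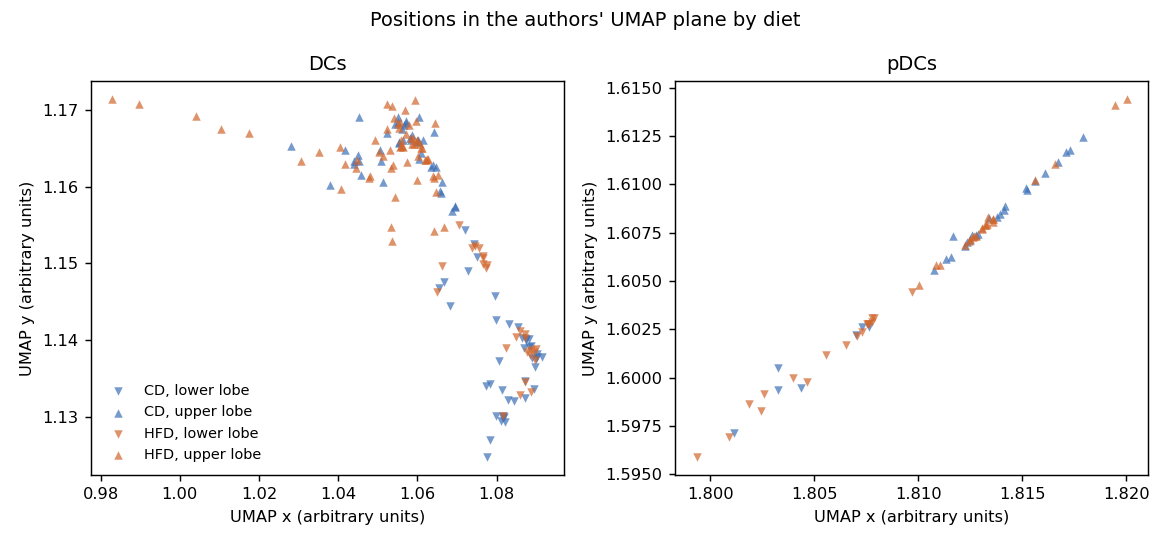
Positions of each DC (left) and pDC (right) in the UMAP plane (arbitrary units), by diet; triangles point down for the lower and up for the upper lobe. DCs form a curved band with a dense upper and a sparser lower end, and the lower lobe holds 41 cells of CD and 26 of HFD.

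Within cluster 32 the DCs formed a band with a lobe at either end. The cluster was divided into 2 lobes by position alone (2-means, without use of the library), a step chosen after the plane had been seen and one that divides any cluster, with or without lobes. The lower lobe held 41 of 85 DCs in CD (48.2%, 37.3 to 59.3) and 26 of 89 in HFD (29.2%, 20.1 to 39.8). A division at the thinnest place of the band was also chosen after the plane had been seen. It gave 34 in CD (40.0%, 29.5 to 51.2) and 15 in HFD (16.9%, 9.75 to 26.3), with intervals that did not overlap. This division was not applied to other clusters, so how common such a result is was not tested. A Gaussian mixture in place of 2-means gave 51.8% in CD and 31.5% in HFD, with overlapping intervals. The lower lobe was thus smaller in HFD under each of these divisions. Whether the intervals overlapped depended on where the band was divided, and only the division at the thinnest place kept them apart.

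The same 2-means division was applied to every fine cluster to see how common such a difference was. Of the 41 clusters with at least 30 cells in each library, 22% had lobe shares whose intervals did not overlap, and DCs were not among them. Monocyte cluster 23 was, with 50.6% of its cells in the lower lobe in CD and 35.2% in HFD. The interval of the difference in DCs ran from -33.4 to -3.77 percentage points and excluded 0, as that of 43.9% of the 41 clusters did. The size of their difference, 19.0 percentage points, ranked 6th of the 41, where the median was 7.25. pDCs came 5th, with 7 of 30 cells in the lower lobe in CD (23.3%) and 18 of 40 in HFD (45.0%) and overlapping intervals. Clusters with few cells vary more by counting alone, and the clusters ranked above both held fewer cells per library than DCs did.

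DCs of the lower lobe had a median of 9282 UMIs and 0.256 genes per UMI, and those of the upper lobe 8353 UMIs and 0.269. The shallow cells lay mostly in the upper lobe, the one with the larger share in HFD. Of the 12 DCs under 2000 UMIs, 11 were there, 3 from CD and 8 from HFD, as were all 5 DCs over 10% mitochondrial UMIs, 1 from CD and 4 from HFD. Without the DCs under 2000 UMIs the lower lobe share differed by -17.3 percentage points between the diets, and without those over 10% by -18.2, in place of -19.0. At like depth the lower lobe had 1.03 times the genes of the upper in CD and 1.00 times in HFD. The mitochondrial percent had no common direction. Its median was 2.76% in the lower and 2.59% in the upper lobe in CD, and 2.08% and 2.43% in HFD. Both lobes were nearest to monocyte cluster 23, at 0.181 and 0.156 units, with fibroblast cluster 38 next at 0.202 and 0.180. The genes that separate the lobes were not analysed here, so no DC subtype is named.

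Barcodes were compared because a sequence found in both libraries can mark a cell counted in both. Of 18370 different barcodes 27 occurred in both libraries. Of these 1 belonged to a DC, in HFD, whose partner in CD was annotated as endothelial, and none belonged to a pDC.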

How the data were processed

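According to the study's methods, reads were mapped by the authors with Cell Ranger to GRCm38.p6 (mm10), merged both libraries in Seurat (version 4.1.0 per the submitters' processing notes) and converted them for Monocle, filtered cells, computed the UMAP and its clusters from highly variable genes, and annotated clusters by hand. The labels and the methods name droplet kits for opposite transcript ends. The deposited table of cells holds the count of UMIs and of detected genes per cell, neither normalised, and the percent of mitochondrial UMIs. The UMAP coordinates the authors deposited are a score in arbitrary units. Gene positions were taken from GENCODE M21 (GRCm38).

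Members and gene lists were chosen with earlier results of these data known. Flt3, Xcr1 and Siglech were always to be named, and of each list the genes with or without the highly variable flag. Shares were given exact (Clopper-Pearson) intervals and ratios exact conditional ones. Intervals of a difference of shares combined both exact intervals by their squared distances. Other measures were given as medians and quartiles over cells. Depth was 42470977 UMIs in 8793 CD cells and 50679251 in 9604 HFD cells. The ratio of shares and the 2-means division were tested on simulated data, and the other calculations were not. A count of 0 was taken to allow 3 counts. Alternatives were limits of 10% mitochondrial UMIs, 2000 and 3000 UMIs and 500 genes, leaving out the top 1% of each library by UMIs, other denominators, means, matched UMIs and 30 neighbours. Python 3.11.15, numpy 2.4.6, pandas 2.3.3, scipy 1.17.1 and scikit-learn 1.9.0 were used.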

Additional observations from a re-analysis of the deposited data

Results flagged for a closer look

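In each dendritic cell cluster, the ratios of HFD to CD of the lobes lay on opposite sides of 1. This was not particular to them. In monocyte cluster 23 the ratio was 0.723 in the lower and 1.37 in the upper lobe. The ratio of a whole cluster lies between those of its lobes, and it was 0.959 in DCs. The differences in DCs and pDCs, in which 1 sample per diet was compared, were not tested. As a share of all cells, the lower lobe of DCs had a ratio of HFD to CD of 0.581 (0.341 to 0.972, from 41 and 26 cells). The upper lobe of DCs had a ratio of 1.31 (0.878 to 1.97, from 44 and 63 cells). In pDCs the lower lobe had a ratio of 2.35 (0.938 to 6.67, from 7 and 18 cells) and the upper lobe 0.876 (0.465 to 1.64, from 23 and 22 cells). Only the first of these 4 intervals excluded 1, as 35.4% of the 82 lobes of the 41 clusters with at least 30 cells in each library did. By the stricter measure, lobe shares whose intervals do not overlap, 22% of these clusters passed and neither DCs nor pDCs were among them. The lobes of a cluster are not independent, since a cell counted in one is missing from the other. Diet and the preparation of a single library cannot be told apart.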

How the results depend on the processing

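Of 75 values recomputed under alternatives, 63 were planned and 12 were chosen after seeing the data. Each of the 75 lay inside the interval of the value it replaced, or for UMAP shifts moved by less than the typical spread of cells. Many of these intervals were wide, such as 0.872 to 1.27 for the ratio of median UMIs in DCs. The alternatives also reused mostly the same cells. Lying inside was therefore likely from the start and is not evidence of stability. Leaving out the top 1% of each library by UMIs took away no DC or pDC, and each type had 1 fine cluster, so these settings say nothing about stability of values within a type. Where the reported interval included 1, some values crossed it. The DC share ratio ranged from 0.878 (at least 3000 UMIs) to 1.04 (of immune cells). For DCs, means instead of medians gave 1.08 for the mitochondrial percent, where medians gave 0.878, and 1.01 for genes per UMI, as matched UMIs did, where medians gave 0.985, and for pDCs means gave 1.24 for the mitochondrial percent, where medians gave 1.01, and the cause was not tested. The pDC share ratio ranged from 1.11 to 1.33 and pDCs per DC from 1.25 to 1.30. The difference in the lower lobe share of DCs ranged from -23.1 to -17.3 percentage points, and that in low-mitochondrial DCs from -8.67 to -5.63 in place of -9.86. The interval of the latter excluded 0 as reported and over all UMI counts (-16.7 to -1.05), but not under 1% (-18.7 to 0.345) or under 0.25% (-13.8 to 0.572). With 30 neighbours in place of 15, the gap in HFD neighbours of pDCs turned from 4.83 to -1.58 percentage points. No paired analysis was possible because CD and HFD had only 1 library each. With 30 pDCs in CD and 40 in HFD, ratios from 0.742 to 2.03 lay within counting error.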
